A study of Drosophila melanogaster with 2 samples.

Results

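Of the 2042 reproducible CG17612-eGFP peaks on the assembled chromosome arms of *Drosophila melanogaster*, 374 (18.3%, 95% Wilson interval 16.7 to 20.1%) met a rule on position. They lay inside an annotated transcript, outside every coding exon and UTR, and more than 2000 bp from the nearest start site of any gene. These peaks are called distal intronic here. Membership was decided from the summit alone, the base at which the authors placed the top of each peak. The values come from chromatin immunoprecipitation followed by sequencing (ChIP-seq) on whole embryos collected 0 to 24 h after laying. The flies carried a transgene expressing CG17612 fused to eGFP, and chromatin sheared by sonication was precipitated with an antibody to GFP; the antibody label names CG17612. There was 1 group of 2 biological replicates, both with the transgene, and no flies without it were analysed here; the control experiment named by the labels was not used here. Neither the promoter of the transgene nor the tissues in which it is active is stated by the labels, and a whole embryo of this age range mixes many cell types and stages.

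Introns of *Drosophila* genes hold many enhancers, which act on start sites at a distance, and also insulator elements, which limit the contacts that enhancers make. Su(Hw), a zinc finger DNA-binding protein, is the protein of the insulator in the gypsy retrotransposon and binds a long sequence of which a short central word is the best known part. CG17612 is a gene known by its annotation number, and a ChIP-seq peak reports where the fusion protein or chromatin attached to it was enriched, not what it did there.

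A core word of Su(Hw), TGCATAC or TGCATAT, searched on both strands, stood near the summit of some distal intronic peaks, among them 4 of the 20 highest. The 12 highest-scoring peaks with a match within 50 bp of the summit follow, leaving out 1 chromosome arm, because they let the bases around the match be compared. Each line gives 30 bases of the RefSeq dm6 genome from 5′ to 3′ on the strand of the match, in 1-based coordinates, and the capitals mark the matched word.
myd at chr3R:19187770-19187799, minus strand: ctgattttcgtTGCATACttttatgcacca
if at chrX:16767254-16767283, minus strand: aaacttttcacTGCATACttttagacactt
kek5 at chrX:19415426-19415455, minus strand: acattatttgcTGCATACttttagacactt
eff at chr3R:14738695-14738724, minus strand: tttagaaccaaTGCATATggcatttagtct
Syt1 at chr2L:2782974-2783003, plus strand: caagttattgtTGCATACtttcagacacct
if at chrX:16757831-16757860, plus strand: taaatatgtatTGCATACtttcagacatct
Tet at chr3L:2800535-2800564, minus strand: ataacttttgcTGCATACttttgcacacct
Cngl at chrX:15402059-15402088, minus strand: gcatttttcacTGCATACttttgcacacct
drongo at chr2L:845507-845536, minus strand: tgattgattcaTGCATATactcctttcaca
CG13894 at chr3L:696956-696985, minus strand: ggcaatataatTGCATACtctactcaatat
Tlk at chrX:3743606-3743635, plus strand: aatgtttttctTGCATACgtgttctcaaat
sima at chr3R:30092771-30092800, plus strand: aatatggaaaaTGCATACacagctgctata
In the lines of myd, if, kek5, Syt1, Tet and Cngl the matched word was followed by TTT, and in those of kek5 and the stronger peak of if by a run of T and then TAGACAC. In the lines of eff, drongo, CG13894, Tlk and sima the bases after the match were different.

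The 4 highest-scoring distal intronic peaks without a core word are shown next, as 30 bases centred on the summit on the plus strand, because 2 of them hold other parts of the same longer sequence. The window of TP53INP opens with AAGTATGC, the reverse complement of GCATACTT. The window of out holds TAGACAC.
Tlk at chrX:3742210-3742239, plus strand: acatcttagttttaatcaagatagattttt
TP53INP at chr3L:4410429-4410458, plus strand: aagtatgctacaatatattttcagcatcaa
CG32486 at chr3L:3060787-3060816, plus strand: gctagagagtcaataagcaaaaccttgctt
out at chrX:19315497-19315526, plus strand: tttagacaccttttcgataaaactgaagtc
The windows of Tlk and CG32486 hold neither. A further set of 3 peaks without the core word held TAGACAC or TAGGCAC near the summit, in capitals below, a word that was chosen for search after the lines above had been seen.
TkR99D at chr3R:29963322-29963351, plus strand: ttgcatgctttTAGACACcttaatgcaagt
simj at chr3L:10683006-10683035, plus strand: tctgcatgaatTAGGCACttaaaattgcca
kairos at chrX:18353635-18353664, plus strand: aagcacactttTAGACACcttcacggttgc
In TkR99D and kairos the word again followed CTTT, while in simj it did not.

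The Su(Hw) core word stood within 50 bp of the summit in 39 of the 374 distal intronic peaks (10.4%, 95% interval 7.72 to 13.9%). In windows of the same length moved 300 bp to the right it stood in 16 peaks (4.28%), and it was present in 4.09% of the 409688 windows of that length that tile the 42.7 Mb of sequence meeting the rule. The excess at the summit passed the exact McNemar test over peaks (adjusted p = 0.0320, Benjamini-Hochberg over 12 consensus words). By the same exact test the call was lost with windows of 100 bp on each side (adjusted p = 0.0786) and for the shorter word TGCATA (adjusted p = 0.185). Within that search window of 50 bp on each side, matches lay a median of 22 bp from the summit, and 19 of the 39 lay within 20 bp. The window itself bounds these distances, so they cannot show whether matches centre on the summit. The word read in the direction of the host gene in 18 peaks and against it in 21, and 5 peaks held 2 or more matches.

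None of the other 11 consensus words passed the exact McNemar test between summit and right flank, and 0 had an unadjusted p under 0.05. Against the left flank GAGAGAG passed, with a difference of -3.74 percentage points (exact adjusted p = 0.0155). In the own list of either replicate alone, 2 words passed against the right flank. The core was among them, and GAGAGAG was not (exact McNemar test, adjusted p = 0.0625 in replicate 1 and 0.438 in replicate 2). The BEAF word CGATA stood at 45 summits (12.03%) and 35 flanks (9.36%), with 10.6% of all windows holding it. Poly(A), AAAAAAA, stood at 43 summits (11.5%) and 53 flanks (14.2%), with 10.6% of all windows holding it. GAGAGAG, the word of GAGA factor, stood at 3 summits (0.802%) and 10 flanks (2.67%), and CACACAC at 15 summits (4.01%) and 24 flanks (6.42%), against 1.33% and 3.84% of all windows. GCCATT, the word of the Polycomb recruiter Pho, was as frequent at summits (8.02%) as in all windows (7.97%), and the CTCF core AGGNGGC stood at 2.41% of summits and 3.32% of windows. CAGGTAG, bound by the early activator Zelda, stood at 3 summits and 1 flank (0.431% of windows). The E-box CAGCTG stood at 13 summits and 19 flanks (3.51% of windows). All words were searched on both strands, and TATCGATA contains CGATA.

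**Figure D1:**
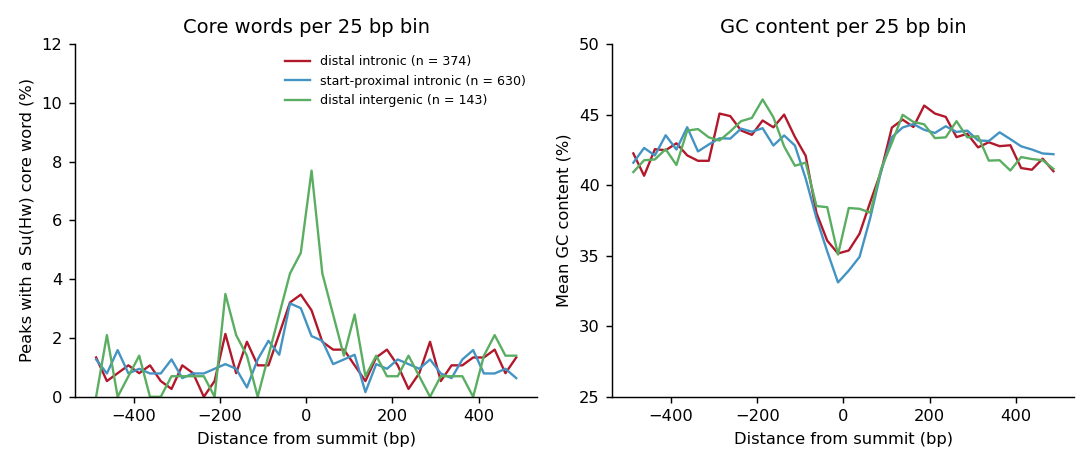
Position of Su(Hw) core words (left, share of peaks with a word start in each 25 bp bin) and mean GC content (right, percent per 25 bp bin) against the distance from the summit in bp, for distal intronic peaks and 2 other classes. The word peaks within 50 bp of the summit, and GC content of distal intronic peaks drops to about 35.2% there.

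Against peaks elsewhere, the core word passed no comparison as fixed, but that with promoter peaks passed in 5 of 10 alternatives. It stood in 9.05% of 630 start-proximal intronic peaks (summit in an intron within 2000 bp of a start site), in 16.1% of 143 distal intergenic peaks and in 5.72% of 996 promoter peaks (summit within 500 bp of a start site, a set that overlaps the start-proximal one). The adjusted p from Fisher's exact test over 48 comparisons was 0.754, 0.285 and 0.0651. The odds ratio against promoter peaks was 1.92. It passed the exact test in the top 50% of the list by score (odds ratio 3.35, adjusted p = 0.00122), in the own list of replicate 1 (2.62, adjusted p = 0.0138) but not that of replicate 2 (2.10, adjusted p = 0.415), with a distance of 1000 bp (adjusted p = 0.0231), with protein-coding start sites (adjusted p = 0.00603) and with windows of 100 bp on each side (adjusted p = 0.0430). Of the other words, TATCGATA, the DRE word of housekeeping promoters, stood in 0 of 374 distal intronic peaks, which allows a share of up to 0.802% if 3 counts are taken as the limit of a count of 0 (Wilson upper limit 1.02%), and in 22 promoter peaks (2.21%, Fisher's exact test adjusted p = 0.0439). CATCNCTA, known as Motif 7 of core promoters, stood in 2 distal intronic and 33 promoter peaks (3.31%, Fisher's exact test adjusted p = 0.0439). Both calls were lost when either replicate's own list was used alone, and in 5 of the 10 alternatives in all. DRE was present in 0.218% and Motif 7 in 0.555% of all windows meeting the rule, and Motif 1, GGTCACACT, in 0.0461% of them and in none of the summits or flanks.

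A search over 8-base words found the extension of the core seen in the lines above. The 20 words that favoured the summit most were ranked on the 138 distal intronic peaks of 2L and 3L and tested on the 236 peaks of the other arms, where 6 passed the exact McNemar test. AAAGTATG, whose reverse complement is CATACTTT, stood at 24 summits and 1 flank (exact adjusted p = 4.77e-06). AAGTATGC, the reverse complement of GCATACTT, stood at 19 summits and 2 flanks (exact adjusted p = 0.00148). AAAAGTAT stood at 21 summits and 2 flanks (exact adjusted p = 0.000660), and AGTATGCA at 11 summits and 1 flank (adjusted p = 0.0317). These 4 overlap each other and the core. The remaining 2, ATTTTAAA (12 against 2) and ATATTTAA (10 against 1), are made of A and T alone (exact adjusted p = 0.0431 for each).

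GC content was lower at distal intronic summits than beside them. The median was 33.7% in the window around the summit and 43.6% in the right flank, and it was lower at the summit in 273 of 374 peaks (73.0%). Start-proximal intronic peaks (32.7% and 43.6%), distal intergenic peaks (35.6% and 45.5%) and promoter peaks (33.7% and 44.6%) had the same kind of dip. How far this base composition sets the counts of A- and T-rich words was not tested.

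GCATACTT and CATACTTT, called the longer words from here on, overlap each other by 7 bases and were chosen from the 8-base search. Either stood in 36 distal intronic peaks (9.63%) and in 0.909% of all windows meeting the rule, and 19 of the 36 peaks also held the core word. TAGACAC or TAGGCAC stood in 14 peaks, against 1.09% of all windows. Together, the core, longer and TAGACAC-type words reached 63 of the 374 peaks (16.8%), which leaves 311 with none. On the arms that were not used to rank the words, 24 of 236 distal intronic peaks (10.2%) held a longer word. Both words had passed against the flank on these same 236 peaks before they were chosen. The comparisons with other classes that follow reuse those peaks, so they are descriptions and not a held-out test. The share was 4.30% in start-proximal intronic peaks (Fisher's exact test, adjusted p = 0.00911, odds ratio 2.52) and 2.18% in promoter peaks (adjusted p = 1.01e-05, odds ratio 5.07). It was 19.4% in distal intergenic peaks (odds ratio 0.472, exact adjusted p = 0.0768). In the less strict list the lower share than in distal intergenic peaks passed (exact adjusted p = 0.0233).

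Peaks with the core word had higher scores. The score is the authors' signal value, with no stated scale, and is used here to rank peaks within a list. Scores of the 39 peaks with the core word had a median of 127 (quartiles 94.4 and 161), against 89.8 (72.2 and 113) for the 335 without. Of the 39, 30 (76.9%) exceeded the median of all distal intronic peaks, against 157 of 335 (46.9%; odds ratio 3.78, Fisher's exact test p = 0.000558). The difference did not pass in the own list of replicate 2 (odds ratio 1.78, p = 0.203) or in the top 50% by score (exact test, odds ratio 2.30, p = 0.0896). Of the 20 highest peaks, 9 held one of the Su(Hw)-type words, and the median score was 120 with any of them and 89.5 with none. The TAGACAC-type words in this pooled set were chosen from windows of high-scoring peaks. The pooled values therefore cannot test a link between word and score.

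Scores of peaks with the longer words were mostly higher in replicate 1 than in replicate 2. Each replicate has its own deposited list, and the score of its highest overlapping peak is given as the replicate score. At the peak in if, which encodes an integrin alpha subunit, the score was 265 in replicate 1 and 89.6 in replicate 2. At the peak in kek5, a transmembrane protein with leucine-rich repeats, it was 191 and 52.2. At myd it was 369 and 132, and at TP53INP 429 and 156. At the peak in luna, a Krüppel-like transcription factor gene, it was 117 and 25.3, a ratio of 4.63. In each of these, replicate 1 was higher by more than 2 times.

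Strong peaks with neither a core nor a longer word were mixed. At the peak in out, which holds TAGACAC, the score was 253 in replicate 1 and 97.3 in replicate 2. At the strongest peak of simj, which holds TAGGCAC, it was lower in replicate 1, with 111 against 138. At CG34417, with no Su(Hw)-type word, it was 186 and 106. At the highest distal intronic peak, in the gene of the kinase Tlk, the score was 294 in replicate 1 and 280 in replicate 2. At CG32486 it was 266 and 250, and at Hr3, a nuclear receptor of the ecdysone cascade, 137 and 155. At the more upstream strong peak of Raf, a kinase of the MAPK cascade, it was 94.5 and 140.

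**Figure D2:**
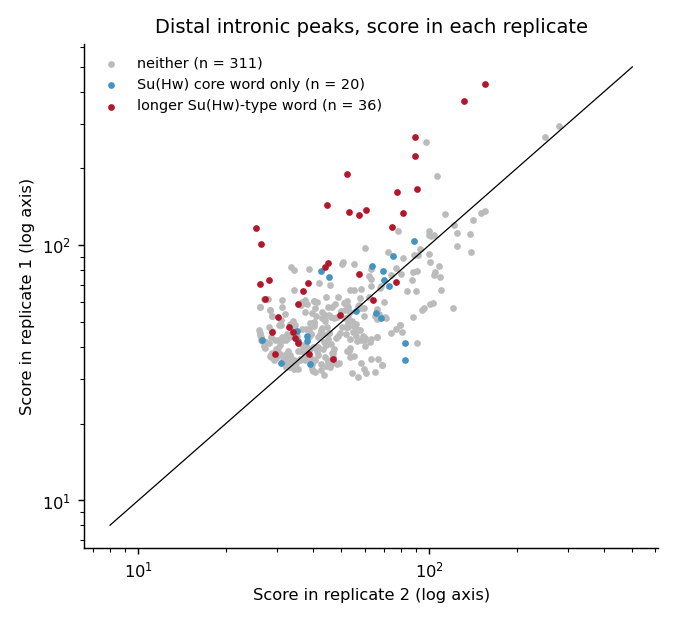
Score in replicate 1 against score in replicate 2 (both log axes) for the 367 distal intronic peaks scored in both, with the line of equal scores. Red points, peaks with a longer word (n = 36), lie mostly above the line; the 20 with the core word alone and the 311 with neither lie around it.

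Over all 367 distal intronic peaks scored in both replicates, the ratio of replicate 1 to replicate 2 had a median of 1.08 (quartiles 0.873 and 1.35). With a longer word the median ratio was 1.84 (n = 36, quartiles 1.35 and 2.56, range 0.770 to 4.63), and without one it was 1.05 (n = 331, quartiles 0.835 and 1.28). Replicate 1 was higher in 32 of the 36. The ratio exceeded the median of all distal intronic peaks in 31 of 36 against 152 of 331. The word alternatives gave a median ratio of 1.35 for the core word (n = 39) and 1.33 for TGCATA (n = 46). Of the 24 peaks with a ratio above 2, 15 held a longer word, and 17 held a Su(Hw)-type word. Of the 6 with a ratio under 0.5, 1 did. These values describe 2 libraries, in which peaks are no replicates, and the comparison was chosen after the scores had been seen, so no test is given and the cause was not tested.

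Other classes of peaks with a longer word are given for comparison. The median was 1.91 in distal intergenic peaks with a longer word (n = 17, against 1.03 in 125 without) and 1.74 in start-proximal intronic peaks (n = 19, against 1.05). In promoter peaks it was 1.03 with a longer word (n = 18) and 1.12 without. Over all peaks that were not distal intronic it was 1.83 (n = 56, against 1.10). The difference of these effects between classes was not tested.

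**Figure D3:**
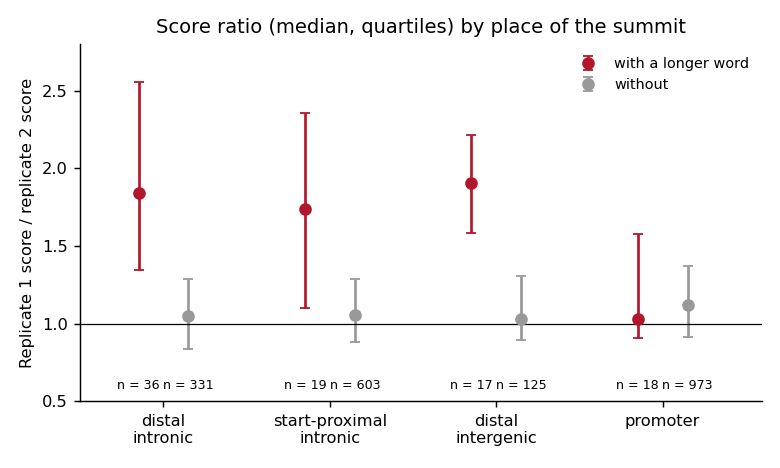
Ratio of the replicate 1 score to the replicate 2 score by place of the summit, for peaks with (red) and without (grey) a longer word; points are medians, bars the quartiles, and n is the number of peaks scored in both. With a longer word the medians are 1.84, 1.74, 1.91 and 1.03 from left to right.

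The own lists were counted in the same way. Of the 36 distal intronic peaks with a longer word, 18 were thresholded in both own lists, 11 in that of replicate 1 only, 1 in that of replicate 2 only and 6 in neither. Of the 311 peaks with no Su(Hw)-type word, 85 were in both, 36 in replicate 1 only, 75 in replicate 2 only and the others in neither. When each own list was taken as the source of distal intronic peaks, 31 of 186 in replicate 1 (16.7%) and 21 of 233 in replicate 2 (9.01%) held a longer word. The lists rest on the same fly line, and the shares are given as description.

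Distal intronic peaks were weaker than peaks near start sites. Their scores ran from 3.16 to 584 with a median of 91.3 (quartiles 73.6 and 124), against 102 for start-proximal intronic, 95.1 for distal intergenic and 108 for promoter peaks. A score above the list median of 98.2 was reached by 158 of 374 (42.2%). The share was 54.4% in start-proximal intronic peaks (odds ratio 0.612, Fisher's exact test adjusted p = 0.000396) and 57.1% in promoter peaks (adjusted p = 4.37e-06). It was 46.2% in distal intergenic peaks, which was not a difference beyond counting error (exact adjusted p = 0.429). Only 6 of the 100 highest peaks of the list were distal intronic, and 61 of the 500 highest. Neighbouring peaks are not independent, although Fisher's test treats them so, and the read depth behind a score is unknown.

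The 13 distal intronic peaks with a score under 30 were neighbours of stronger ones. Each lay 199 to 221 bp from a higher peak of the list. In rdx, the lowest of 5 peaks scored 3.79 and the neighbouring summit scored 92.7. The highest own-list peaks that overlap the lowest one scored 44.7 and 39.3. At such distances these can be the peaks of the neighbour, which was not checked. In 11 peaks the pooled score was under both replicate scores, which can likewise come from a neighbour. Without them 363 distal intronic peaks were left. When all such peaks of the list were left out, in every class, 1969 of the 2042 were left. All calls on score and own lists then stayed.

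Distal intronic peaks were also found less often than start-proximal intronic and promoter peaks by each replicate alone. In the own thresholded list of replicate 1, 164 (43.9%) had an overlapping peak, against 57.5% of start-proximal intronic peaks (Fisher's exact test adjusted p = 4.97e-05) and 63.5% of promoter peaks (adjusted p = 3.50e-10). In that of replicate 2 it was 195 (52.1%), against 65.6% (exact adjusted p = 0.000134) and 62.6% (adjusted p = 0.00106). Both lists held 113 (30.2%), against 46.5% (exact adjusted p = 7.99e-07) and 48.6% (adjusted p = 3.24e-09). Distal intergenic peaks had shares of 49.7%, 46.2% and 35.7%, and none of these passed (exact adjusted p = 0.238, 0.239 and 0.246). With a distance of 1000 bp the share in replicate 2 was called higher than that of distal intergenic peaks (odds ratio 1.43, exact adjusted p = 0.0436). Against all other peaks the share in replicate 2 (58.1%) narrowly missed the threshold (exact adjusted p = 0.0501). In neither list were 128 distal intronic peaks (34.2%). The median score was 151 for those in both and 71.0 for those in neither. In the top 50% of the list by score the comparisons with start-proximal intronic peaks in either replicate were lost (exact adjusted p = 0.0769 and 0.0988), as was that with promoter peaks in replicate 2 (adjusted p = 0.435), while those for both lists together held.

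**Figure D4:**
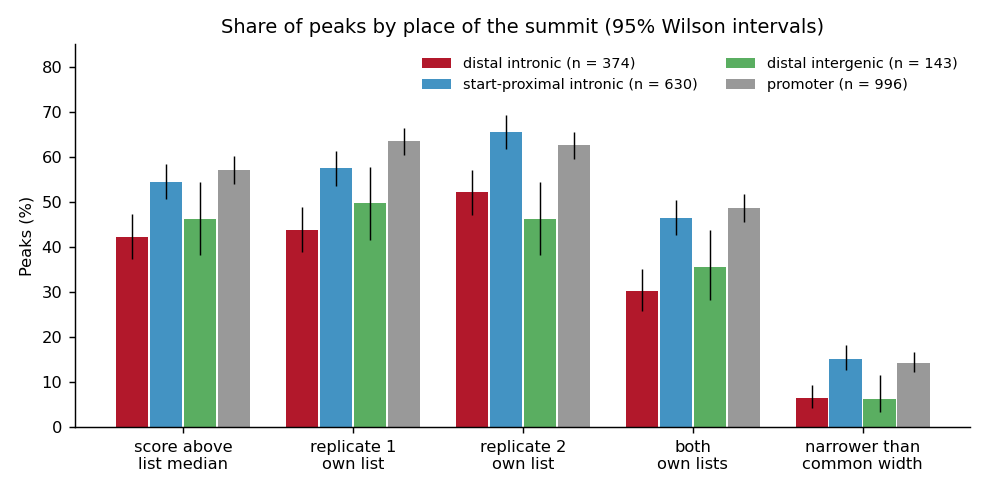
Share of peaks (percent, bars, with 95% Wilson intervals) by place of the summit that scored above the list median, were thresholded in an own list, or were narrower than the common width. Distal intronic peaks lie below start-proximal intronic and promoter peaks in all 5 shares.

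Few distal intronic peaks were narrower than the width of 324 bp shared by most peaks of the list. It was 24 of 374 (6.42%), against 15.2% of start-proximal intronic and 14.4% of promoter peaks (Fisher's exact test adjusted p = 7.82e-05 for each) and 6.29% of distal intergenic peaks (adjusted p = 1). The narrow peaks were the strong ones, with a median score of 248 against 89.5 for the others. A Su(Hw)-type word stood in 9 of the 24 (37.5%) and in 54 of the 350 others (15.4%). This pooled set includes the TAGACAC-type words chosen from high-scoring peaks. The core word alone stood in 5 of the 24 (20.8%) and in 34 of the 350 (9.71%), which was not tested. In the own list of replicate 1 the difference in width from start-proximal intronic and promoter peaks did not pass (exact adjusted p = 0.419 and 0.506). Among peaks beyond 5000 bp it did not pass against start-proximal intronic (exact adjusted p = 0.0682) or all other peaks (exact adjusted p = 0.120).

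Replicate scores of distal intronic peaks had medians of 47.9 in replicate 1 and 44.8 in replicate 2. Their rank correlation across peaks, over all 367 peaks of the same 2 libraries, was 0.462 (Spearman), against 0.707 for 622 start-proximal intronic and 0.537 for 142 distal intergenic peaks. No peak of replicate 1 overlapped 4 of them and no peak of replicate 2 overlapped 3.

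The peaks lay most often in first introns, and in introns somewhat shorter than the sequence meeting the rule offers. An intron held 372 of the 374, and the other 2 lay in exons of long non-coding RNAs, lncRNA:CR44619 (score 238) and lncRNA:CR43334 (score 104). The first intron of the host transcript held 153 (41.1%), although first introns make up 29.3% of the intronic sequence meeting the rule, and the second held 128 (34.4%, against 25.5%). The introns had a median length of 17.8 kb, against 22.0 kb over all such sequence, and the longest was 158 kb. The nearest splice site was a median of 4064 bp away and within 500 bp for 28 peaks. Cut into 3 equal lengths from upstream to downstream, the introns held 121, 129 and 122. A further gene was nested in the intron at 133 (35.8%). Splice-site distances and nested genes are not given for all sequence meeting the rule, so these values have no background beside them.

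Distances to start sites were shorter than over the sequence meeting the rule. The median was 5011 bp (quartiles 3340 and 8783, longest 227152), against 8148 bp over that sequence. Beyond 5 kb lay 188 peaks (50.3%, against 68.7% of that sequence), beyond 10 kb 80 (21.4%, against 42.4%) and beyond 20 kb 22. The median score was 97.8 for 70 peaks at 2 to 3 kb, 90.6 for 116 at 3 to 5 kb, 90.4 for 108 at 5 to 10 kb, 89.2 for 58 at 10 to 20 kb and 96.3 for 22 farther away. At the limit itself, the nearest distal intronic peak lay 2001 bp from a start site with a score of 76.6, and the nearest excluded intronic peak 1997 bp away with 66.8. The 45 peaks at 2001 to 2500 bp had a median score of 94.99 and the 74 excluded ones at more than 1500 and up to 2000 bp one of 92.9.

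The X chromosome held 99 distal intronic peaks (26.5%), although it holds 18.9% of the sequence meeting the rule and 19.1% of all peaks on the arms. That is 12.3 peaks per Mb of such sequence, against 11.4 on 2L, 8.77 on 2R, 7.72 on 3L and 6.543 on 3R. Chromosomes 4 and Y held none of the 374, which by the same 3 counts allows a share of up to 0.802% each. Of the 36 peaks with a longer word, 12 were on the X.

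The share of genes with a peak was higher in the lists of developmental regulators than over all genes. Of 4997 genes with any sequence meeting the rule, 292 held a distal intronic peak (5.84%), at 8.34 peaks per Mb of it. Among developmental transcription factors it was 28 of 157 (17.8%, 95% interval 12.6 to 24.6%) at 14.8 peaks per Mb. Among genes of signalling pathways it was 16 of 85 (18.8%, 11.9 to 28.4%) at 19.5 per Mb. Of the 22 peaks of the signalling list, 4 were in fz. The lists are not separate, since sd is in both. Genes of muscle structure and fusion had 5 of 35 (14.3%, 6.26 to 29.4%) at 12.1 per Mb. Of their 9 peaks, 3 were in if and 3 in kirre. A gene with more such sequence has more room for a peak, so counts per Mb are given beside the shares. The median gene of the transcription factor list had 11.6 kb and that of all genes 1.07 kb. Counts per Mb in turn depend on distance from start sites, for which the lists were not matched. Beyond 10 kb lay 21.4% of the peaks and 42.4% of such sequence. The median gene had 5.98 kb in the signalling list and 21.4 kb in the axon guidance list.

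In the lists of adhesion, channel, receptor and second messenger genes, shares and densities pointed in different directions for some, and some lay near the values of all genes. Cyclic nucleotide and calcium signalling genes had 7 of 60 (11.7%) at 6.81 peaks per Mb, and axon guidance and neural adhesion genes 9 of 92 (9.78%) at 4.01 per Mb. Ion channel genes had 5 of 84 (5.95%) at 4.55 per Mb and G protein-coupled receptors 2 of 74 (2.70%) at 4.28 per Mb, with 4 of their 5 peaks in fz. None of the 29 genes of the dpr and DIP immunoglobulin family held one, in 1.26 Mb of such sequence. Insulator and architectural protein genes had little room, and JIL-1, a histone kinase, was the 1 of 7 with a peak (score 168). Ribosomal protein genes had 1 gene with any such sequence and no peak. CG17612 itself (2L, 4380722 to 4382735) has no sequence meeting the rule, so it could hold none. The lists were chosen with earlier results in view and carry no test.

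**Figure D5:**
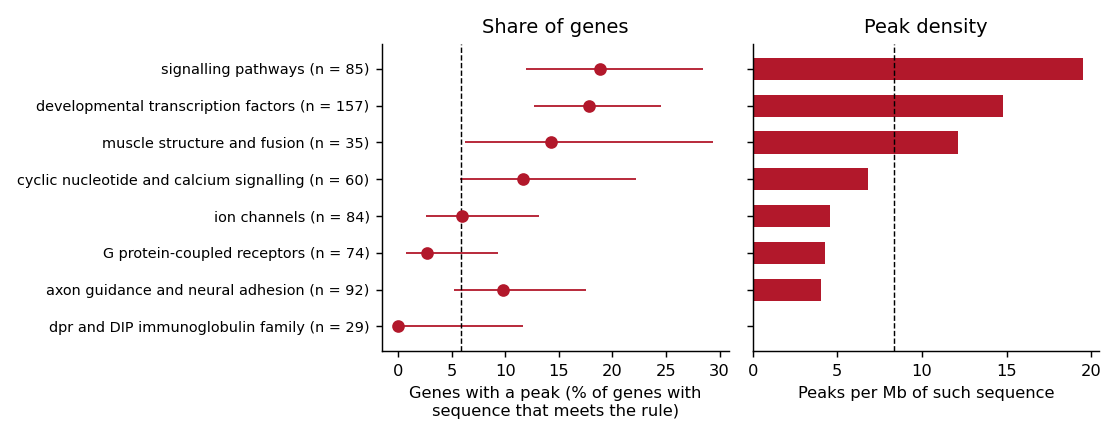
Left, share of genes with a distal intronic peak (percent of the genes with sequence meeting the rule, 95% Wilson intervals); right, distal intronic peaks per Mb of that sequence, by gene list; dashed lines are all 4997 genes (5.84% and 8.34 per Mb). Signalling pathway, developmental transcription factor and muscle lists lie right of both lines.

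Among the transcription factors the highest peaks were in Hr3 (score 307), in sd, the DNA-binding partner of Yorkie (214, with a longer word and replicate scores of 133 and 81.6), in the forkhead gene CHES-1-like (174) and in the nuclear receptor gene Hr4 (161). In signalling genes other than sd they were at aos, an inhibitor of the EGF receptor (188, in an intron of CG33158), in fz, the Frizzled receptor (160), and in S, which takes part in processing of EGF receptor ligands (125). In muscle genes they were in if (356), in Dys, the dystrophin gene (213), in kirre, an adhesion gene of myoblast fusion (191), and in mew, another integrin alpha subunit (100.7).

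In the axon guidance and neural adhesion list the peaks that stood highest were in kek5 (235), tutl (125), side, an adhesion gene of motor axon guidance (101.5), and NetA, a netrin (91.2). Channel genes had peaks in Cngl (187, with replicate scores of 135 and 53.1), Piezo, a mechanosensitive channel (76.2), Ca-beta (72.4) and Ih (72.1). The receptor genes were TkR99D, a tachykinin receptor (263), and fz. In second messenger genes they were in Syt1, the calcium sensor of synaptic vesicle release (204, with 137 and 60.9), dnc, a cAMP phosphodiesterase (108), Pde11 (89.8) and Pka-C1, a catalytic subunit of protein kinase A (88.1).

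The remaining peaks of the 20 highest were in RhoGAP19D, a GTPase-activating protein gene (313), CG34417 (298), CG12769 (286), Gug, the Atrophin corepressor (263), simj, a NuRD subunit (249), mnb, a DYRK kinase (249), hig, a secreted synaptic protein (248), and CG32264 (222). RhoGAP19D and hig held a longer word, with replicate scores of 223 and 89.4, and of 162 and 77.5. At Gug they were 126 and 141, and at mnb 133 and 114. The peak in out, a gene of a putative transporter, scored 349, with 253 and 97.3.

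Some genes held several peaks, in part of them within 1 intron. The 374 peaks had 274 host genes, of which 208 had 1, 44 had 2 and 22 had 3 or more, and 166 peaks (44.4%) shared their host with another. In sbb, a transcriptional corepressor gene, 6 peaks lay over 35.0 kb of 1 intron, with scores from 79.2 to 172, and none held a core or longer word. In Raf, 5 peaks lay within 6.41 kb of 1 intron, with scores of 231, 230, 110, 90.5 and 80.1. In Hr4, 5 peaks in 2 introns, over 16.2 kb, scored from 3.16 to 161. In rdx, a Cullin adaptor of Hedgehog signalling, 5 peaks lay within 5.58 kb, of which the highest scored 210 and the lowest 2 lay beside a higher peak. In shn, a zinc finger gene of Dpp signalling, 4 peaks in 1 intron scored from 45.4 to 121. The 4 peaks of fz, from 4.50 to 160, and the 4 of lncRNA:CR44357, from 62.7 to 115.2, lay in 2 introns of each gene.

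With 3 peaks each, if and Tlk mixed peaks with and without Su(Hw)-type words. In if, 2 peaks held a longer word (scores 356 and 189, replicate 1 over replicate 2 by 265 against 89.6 and by 132 against 57.7), and the third, without one, scored 93.0, with 45.1 and 45.4. In Tlk, the strongest peak (584) had no core word and a neighbour had one (150, with 83.3 and 63.8). In simj the 3 peaks scored 249, 186 and 81.5.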

How the data were processed

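Peak lists on dm6 were analysed as the authors deposited them. Per the deposited description files, the conservative list was derived from both replicates and thresholded on the irreproducible discovery rate (IDR), and each replicate has its own ranked and thresholded lists. Aligner and peak caller: not given in the sources used here. Each score is the authors' deposited signal value, with no stated scale, and the summit is the deposited offset from the peak start, in bp. The files hold no read counts, so depth is unknown; intervals cover counting error of peaks only.

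Summits were placed on Ensembl release 115 (BDGP 6.54) transcripts, without transposable elements; start sites of all genes counted. Bases come from the RefSeq dm6 genome. Shares were compared with Fisher's exact test (2-sided) and summit with flank by the exact McNemar test, adjusted by Benjamini-Hochberg over the 4 comparison sets, 48 motif comparisons, 12 words or 20 words; a call has an adjusted p under 0.05. Genes named are hosts of the 20 highest peaks, genes with 3 or more peaks (up to 10), up to 4 per list and CG17612, and in the sequence lines the 12 highest peaks with a core word and the 4 highest without; luna, lncRNA:CR43334 and the genes of the TAGACAC-type lines were named after their values were seen. The members and lists were chosen with earlier results of these data known; the longer words, their ratios and TAGACAC were chosen after seeing the data. Scripts used Python 3.11.15, numpy 2.4.6, pandas 2.3.3, scipy 1.17.1 and matplotlib 3.10.9 and were tested on simulated data.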

Additional observations from a re-analysis of the deposited data

How the results depend on the processing

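Of 46 results, 371 values were computed under alternatives; 302 kept their direction and their side of the threshold or stayed within their range, 22 no longer passed, 11 newly passed, 31 moved and 5 changed sign. Causes were not tested, except that shorter lists leave fewer peaks by construction. Depth is unknown, so a peak missing from a list may be absent or undetected.

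Taking the own list of each replicate alone, the number of distal intronic peaks was 186 to 233. The odds ratio of narrow peaks was 0.237 to 0.609 against start-proximal intronic, 0.715 to 1.27 against distal intergenic, 0.246 to 0.747 against promoter and 0.276 to 0.767 against all other peaks. That of the Su(Hw) core against promoter peaks was 2.10 to 2.62 (passed in replicate 1), of DRE 0 to 0 and of Motif 7 0 to 0.175. Calls between classes were 0 to 1 and calls against the flank 2 to 2. The odds ratio of a high score with the core word was 1.78 to 4.76. Genes with a peak were 3.30 to 3.86% of all genes, 2.38 to 2.38% of ion channels, 10.2 to 13.4% of developmental transcription factors, 9.41 to 12.9% of signalling genes and 3.33 to 10% of cyclic nucleotide and calcium genes.

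In the top 50% of peaks by score, 158 were distal intronic. The odds ratio for the own list of replicate 1 was 0.642 against start-proximal intronic and 0.227 against distal intergenic peaks (newly passed, exact adjusted p = 0.00448), and that of replicate 2 was 0.502 against start-proximal intronic and 0.797 against promoter peaks. The core word had an odds ratio of 3.35 against promoter and 2.23 against all other peaks, both newly passed, and DRE and Motif 7 had 0 and no longer passed. The odds ratio of a high score with the core was 2.30. Genes with a peak were 2.72% of all genes, 3.26% of axon guidance, 1.19% of ion channel, 8.92% of transcription factor, 8.24% of signalling and 3.33% of cyclic nucleotide and calcium genes.

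With a start-site distance of 1000 bp, the odds ratio of a high score against distal intergenic peaks was 1.07, that of the own list of replicate 2 was 1.43 and the core against promoter peaks had 1.87, both newly passed, class calls were 4, and 4.61% of all genes had a peak; 540 peaks were distal intronic. At 5000 bp the peaks numbered 188, narrow peaks had odds ratios of 0.539 against start-proximal intronic and 0.610 against all other peaks, DRE had 0 and Motif 7 had 0.156, none passing, class calls were 0, and 8.09% of genes had a peak. With protein-coding start sites only, the odds ratio of a high score against distal intergenic peaks was 1.05, the core had 2.18 against promoter peaks, newly passed, and 4.46% of genes had a peak.

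With 1 peak kept per run of summits within 1000 bp, the own list of replicate 2 gave 0.771 against all other peaks, newly passed, narrow peaks 0.999 against distal intergenic, DRE 0 and Motif 7 0.160 against promoter, and class calls were 0. With windows of 100 bp on each side, the core had 1.62 against promoter peaks, newly passed, class calls were 10, the core exceeded the flank by 6.68 percentage points, no longer passing, and flank calls were 0. Against the left flank, GAGA differed by -3.74 percentage points, newly passed, and flank calls were 2. With TGCATA, the core had 0.978 against start-proximal intronic peaks and exceeded the flank by 5.61 points, no longer passing, with 0 flank calls. The longer words in the less strict list had 0.414 against distal intergenic peaks, newly passed. This is a description, because peaks on these arms served to choose the words. The alternatives on the ratio of replicate scores, chosen after seeing the data, gave odds ratios of 3.27 to 9.53 as descriptions of 2 libraries. Without the peaks of any class scored under both replicates, 1969 peaks were left, of which 363 were distal intronic.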
